A study of Mus musculus with 6 samples.

Results

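The genes described here encode the inhibitors of cyclin-dependent kinases (CDKs) of the Cip family, Cdkn1a, Cdkn1b and Cdkn1c, and of the Ink family, Cdkn2a, Cdkn2b, Cdkn2c and Cdkn2d. They were found on the array by the gene symbol of the platform annotation, using probe sets that name a single gene and, where a gene had several, the one with the highest mean over the 6 arrays. Of the 7 genes, 6 had such a probe set, among 19938 genes in all. The exception was Cdkn1a, whose 1 probe set also names another gene and was not used. The arrays measured RNA of cardiomyocytes from mouse hearts at E12.5, 3 from Yap heterozygous (Yap HET) and 3 from Yap knockout (Yap KO) embryos, described as biological replicates. The arrays are called HET1 to HET3 and KO1 to KO3 after the replicate number in their labels. All embryos came from matings of the TNTCre, Yap flox and R26 mTmG strains. TNTCre expresses Cre recombinase from the cardiac troponin T promoter, and the mTmG reporter makes the cells in which Cre was active green, which were the cells sorted. By the names in the design text the comparison group also carried the Cre and a floxed Yap allele, so it was not wild type.

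CDK inhibitors slow or stop the cell cycle by binding the kinases that drive it. Ink proteins are built of ankyrin repeats and bind Cdk4 and Cdk6, which keeps D-type cyclins off these kinases and leaves the retinoblastoma protein active. Cip proteins bind a wider range of cyclin-CDK complexes, with those of Cdk2 as their best known targets. Much of the control of these inhibitors, of p27 in particular, lies in protein degradation, which arrays of RNA do not measure. In the mouse embryonic heart, p57, the product of Cdkn1c, is known from the trabecular myocardium, and loss of p27, the product of Cdkn1b, is known to enlarge the heart. YAP, which the Hippo kinases restrain, promotes proliferation of cardiomyocytes.

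Yap1, the targeted gene, read 886, 927 and 871 in Yap HET and 103, 84.7 and 86.6 in Yap KO cells. The arrays had medians between 128 and 140 over all probe sets and correlated at 0.984 to 0.996 over the 13632 genes tested. Those were the genes above an intensity of 85.7, the 40th percentile of probe set means. All 6 inhibitor genes with a probe set passed it, although the Cdkn2a probe set read between 92.2 and 131 and the Cdkn2b probe set between 110 and 132 (Yap1 in Yap KO cells read 84.7 to 103). No detection call was used here, so how far values this low lie above background is not known. Of 15 cardiomyocyte markers, 15 were tested and 0 passed the threshold in limma (2 at an unadjusted p under 0.05, both lower), and their summed intensity lay between 103903 and 105382 in Yap HET and between 102320 and 104765 in Yap KO. All changes given here are Yap KO minus Yap HET on the log2 scale with their standard error (SE). Adjusted p-values are those of limma with Benjamini-Hochberg adjustment over all 13632 genes, and a gene is said to rise or fall where this value was under 0.05. Precision is limited by the number of arrays.

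Among the Ink genes, and among all 6 inhibitor genes tested, Cdkn2d was the 1 that changed. It encodes p19Ink4d, which in the mouse is known for keeping neurons and cochlear hair cells out of the cell cycle. Its intensity was 478, 486 and 426 in Yap HET and 564, 605 and 605 in Yap KO cells. All 3 Yap KO values lay above all 3 Yap HET values, and HET3 was the lowest. The mean went from 463 ± 32.8 (SD, n = 3) to 591 ± 23.4, a 1.28-fold higher level. This was a rise of 0.35 ± 0.07 on the log2 scale, with a 95% interval of 0.20 to 0.51 (limma adjusted p = 0.019). For comparison, 9.93% of all genes tested changed in either direction, 5.16% rose, 4.76% fell, 28.2% had an unadjusted p under 0.05, and 33.9% had groups that did not overlap, so 1 riser among 6 genes is not read as a property of these families. The size was close to the median absolute log2 change of all genes that passed, 0.33. The call ended when HET1 (limma adjusted p = 0.057), KO2 (limma adjusted p = 0.083) or KO3 (limma adjusted p = 0.064) was left out, with log2 changes of 0.38, 0.34 and 0.34.

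**Figure D1:**
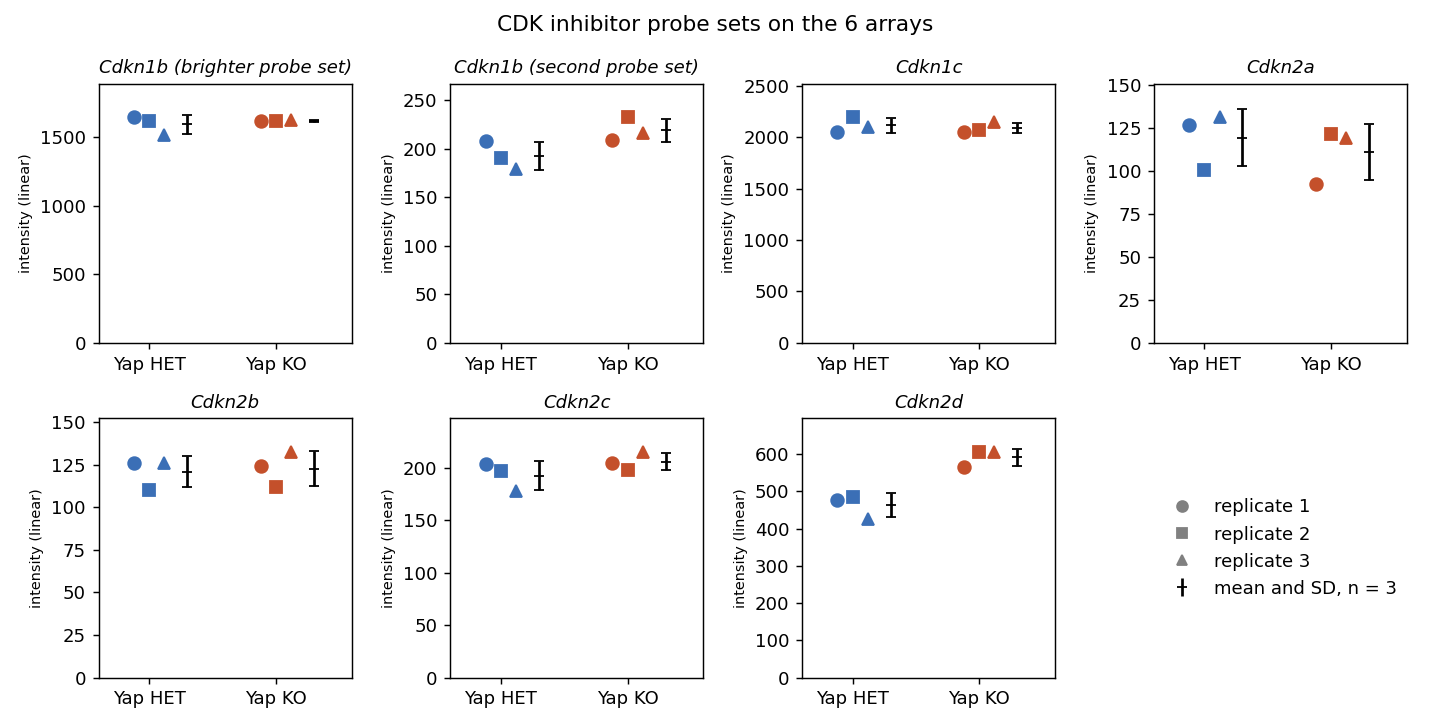
Intensity on a linear scale of the 7 probe sets of the 6 CDK inhibitor genes on the 3 Yap HET arrays (blue) and the 3 Yap KO arrays (red), with the mean and SD of each group in black and a symbol for each replicate number. For Cdkn2d the Yap KO arrays (564 to 605) sit above the Yap HET arrays (426 to 486), whereas the groups overlap for Cdkn1c, Cdkn2a, Cdkn2b, Cdkn2c and the brighter Cdkn1b probe set.

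The promoter of Cdkn2d is shown beside that of Cdkn2c, which encodes another Ink protein and did not pass the test, so that the sequence at the start of the gene that rose can be read against one that did not. RefSeq promoters on GRCm38.p6, running from 250 bases before to 50 after an annotated start, were found for 6 of the 7 genes, 9 promoters in all. The sequences are on the minus strand at chr9:21291160-21291459 for Cdkn2d and, for the first of its 2 starts, at chr4:109666707-109667006 for Cdkn2c. Capitals mark GC boxes, spelled GGGCGG, and E2F motifs on either strand. The E2F motif was searched as TTCCCGC, as its form TTGGCGC and as its form TTCGCGC.
Cdkn2d: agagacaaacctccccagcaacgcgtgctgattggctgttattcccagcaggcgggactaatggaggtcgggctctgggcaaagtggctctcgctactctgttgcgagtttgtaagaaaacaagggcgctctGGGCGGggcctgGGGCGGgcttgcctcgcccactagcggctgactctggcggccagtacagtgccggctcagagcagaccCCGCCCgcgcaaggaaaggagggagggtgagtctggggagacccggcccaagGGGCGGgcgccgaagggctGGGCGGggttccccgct
Cdkn2c: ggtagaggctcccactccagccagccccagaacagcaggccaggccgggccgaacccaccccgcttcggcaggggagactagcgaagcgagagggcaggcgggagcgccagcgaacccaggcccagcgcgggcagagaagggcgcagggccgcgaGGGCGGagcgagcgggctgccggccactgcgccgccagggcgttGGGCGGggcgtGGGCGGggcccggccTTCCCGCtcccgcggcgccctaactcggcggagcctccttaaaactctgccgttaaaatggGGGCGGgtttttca

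The Cdkn2d promoter held 5 GC boxes and 0 E2F motifs, and 66.3% of its bases were G or C against a median of 52.7% over all promoters. The Cdkn2c promoter at the first start held 4 GC boxes and 1 E2F motif, TTCCCGC, with 73.3% G or C. That at the second start held 0 GC boxes and 0 E2F motifs, with 44% G or C, so the contrast depends on the start chosen. A GC box was found in 7 of the 9 inhibitor promoters and in 35.7% of all 32851 promoters of this length, and an E2F motif in 2 of 9 and in 8.07% of all. The TEAD motif GGAATG, the letters bound by the DNA-binding partners of YAP, was in 0 of 9 and in 14.7% of all. The FOXO motif GTAAACA was in 0 of 9 and 3.65% of all, and the E box CACGTG in 1 of 9, the second start of Cdkn2c, and 7.15% of all. Both strands were searched and 0 matches overlapped. A match describes letters in these windows and is not evidence of binding.

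The other Ink genes had small changes that did not pass the test. Cdkn2c, which encodes p18Ink4c, read 203, 197 and 177 in Yap HET and 205, 198 and 215 in Yap KO cells. The groups overlapped, and the lowest value was again HET3. The log2 change was 0.10 ± 0.07 with a 95% interval of -0.05 to 0.25 (limma adjusted p = 0.37). Cdkn2b, which encodes p15Ink4b, an inhibitor induced by TGF-beta in several cell types, read 126, 110 and 126 in Yap HET and 124, 112 and 132 in Yap KO. Its groups overlapped throughout, with a log2 change of 0.02 ± 0.08 (95% interval -0.17 to 0.21, limma adjusted p = 0.90). Cdkn2a encodes p16Ink4a and, from another reading frame, the p53 activator p19Arf. The sources used here do not say which of these transcripts its 1 probe set covers. Cdkn2a read 127, 100 and 131 in Yap HET and 92.2, 122 and 119 in Yap KO. Its arrays scattered more than those of any other inhibitor gene here, with an SD within groups of 0.22 on the log2 scale, above that of 97.1% of the genes tested. The log2 change was -0.11 ± 0.13, and the 95% interval of -0.42 to 0.20 leaves room for a change as large as that of Cdkn2d in the downward direction (limma adjusted p = 0.65).

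The Cip genes were measured with the narrowest intervals. Cdkn1c, the p57 gene, which is imprinted and expressed from the maternal allele, read 2048, 2192 and 2102 in Yap HET and 2051, 2070 and 2143 in Yap KO cells. The 3 Yap KO values lay inside the range of the Yap HET values. The log2 change was -0.02 ± 0.05, and the 95% interval of -0.14 to 0.10 corresponds to a level between 0.91 and 1.07 times that in Yap HET (limma adjusted p = 0.85). Cdkn1b, the p27 gene, read 1643, 1618 and 1515 in Yap HET and 1615, 1616 and 1627 in Yap KO. The Yap KO arrays lay close together, and the Yap HET arrays reached both above and below them. The log2 change was 0.03 ± 0.05 with a 95% interval of -0.09 to 0.14 (limma adjusted p = 0.79).

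A second, dimmer probe set of Cdkn1b gave another picture and was set beside the first after the data were seen. It read 208.1, 190 and 179 in Yap HET and 208.5, 232 and 216 in Yap KO. The groups just failed to overlap, at HET1 and KO1. Its log2 change was 0.19 ± 0.07 with a 95% interval of 0.01 to 0.36, and it did not pass the test over 21334 probe sets (limma adjusted p = 0.18, unadjusted p = 0.039, with 4.09% of those probe sets past the adjusted threshold). The sources used here do not say which part of the Cdkn1b transcript each probe set covers, so both values are given.

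**Figure D2:**
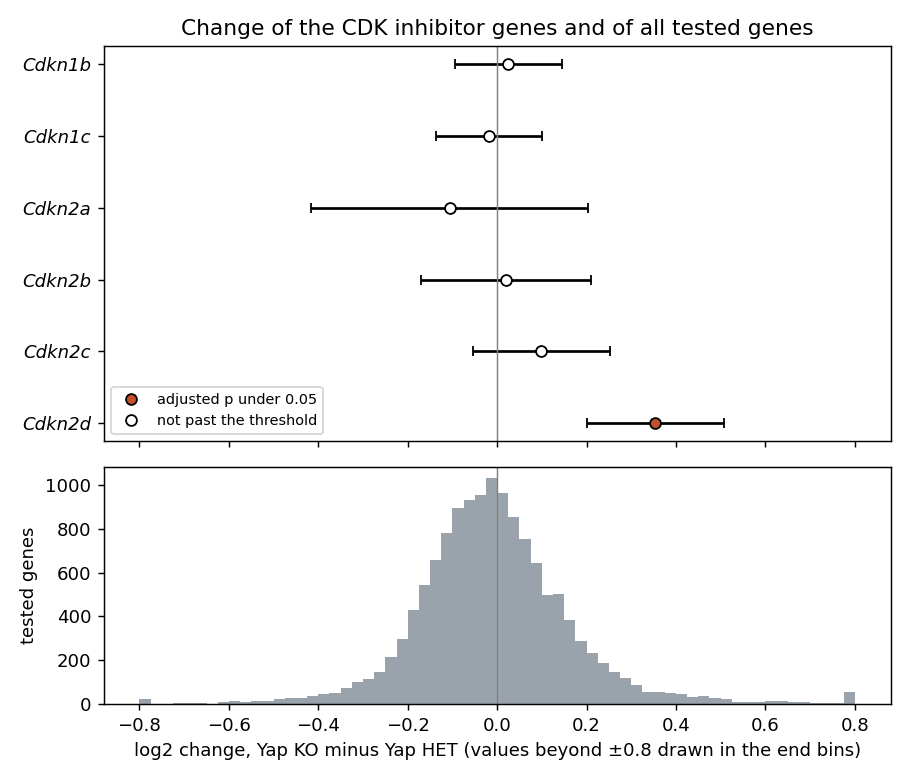
Upper panel, log2 change (Yap KO minus Yap HET) of the 6 CDK inhibitor genes with 95% intervals, filled where the limma adjusted p was under 0.05; lower panel, the log2 changes of all 13632 genes tested on the same axis. The interval of Cdkn2d (0.20 to 0.51) lies above 0, and the other 5 intervals include it, with the widest for Cdkn2a.

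Whether Cdkn2d changed more than another inhibitor gene was tested on the ratio of the pair within each array. The log2 ratio of Cdkn2d to Cdkn2c was between 1.23 and 1.31 in Yap HET and between 1.46 and 1.61 in Yap KO cells, a difference of 0.26. For Cdkn1b and Cdkn1c the ratio differed by 0.33 and 0.37, and for Cdkn2b and Cdkn2a by 0.33 and 0.46, sizes that rest on the dim probe sets of the last pair. In each of the 5 pairs the groups did not overlap. All 5 share Cdkn2d, whose own groups did not overlap, as in 33.9% of all genes tested, so they are no separate observations. The two-sided exact permutation p was 0.1 for each pair, and 0.1 after Benjamini-Hochberg adjustment over the 5. This is the smallest value that 3 arrays against 3 allow, so the test could not pass the threshold and decides nothing in either direction.

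The genes whose profile over the 6 arrays was closest to that of Cdkn2d were Taf13, Amt and Wnt11. Likeness was the root mean square difference of log2 values centred on each gene's mean, and it was 0.026, 0.028 and 0.028. Taf13, which encodes a subunit of the general transcription factor TFIID, read 327, 337 and 281 in Yap HET and 391, 420 and 408 in Yap KO. Amt encodes the aminomethyltransferase of the mitochondrial glycine cleavage system and rose by 0.32 ± 0.07 (limma adjusted p = 0.028). Wnt11, which encodes a Wnt ligand of the developing heart, rose by 0.34 ± 0.06 (limma adjusted p = 0.019). Being chosen for this profile, all 3 had HET3 as their lowest array, as did Cdkn2d, and their rises are no separate evidence. Their calls too were lost without HET1, KO2 or KO3, that of Amt also without HET3.

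The protein-coding genes that flank the inhibitor genes in the annotation were read beside them. Of the 8 that were tested and are not inhibitor genes themselves, 3 fell and 1 rose. By comparison, 4.76% of all genes tested fell and 5.16% rose. With 8 genes, these counts are not read as a property of the flanking genes. Kri1, which encodes a ribosome biogenesis factor and lies beside Cdkn2d, had a difference of -0.04 ± 0.08 on the log2 scale and did not pass (limma adjusted p = 0.78), and Ap1m2 on its other side was not tested. Beside Cdkn1c, the potassium channel gene Kcnq1 fell from 417 ± 14.4 to 291 ± 7.76 (log2 change -0.52 ± 0.05, limma adjusted p = 0.0024), and Slc22a18 had -0.08 ± 0.08 (limma adjusted p = 0.56). Beside Cdkn1b, the receptor gene Gpr19 fell by 0.53 ± 0.07 on the log2 scale (limma adjusted p = 0.0069), and Apold1 had -0.05 ± 0.07 (limma adjusted p = 0.70). Cdkn2a and Cdkn2b lie next to each other. Mtap, the methylthioadenosine phosphorylase gene on the Cdkn2a side, fell by 0.26 ± 0.06 (limma adjusted p = 0.035), and Dmrta1 on the Cdkn2b side rose by 0.46 ± 0.08 (limma adjusted p = 0.016). Beside Cdkn2c, Faf1 had 0.07 ± 0.07 (limma adjusted p = 0.53) and 4930522H14Rik was not tested. The falls of Kcnq1 and Gpr19 held without any single array, that of Mtap was lost whichever array was left out, and the rise of Dmrta1 was lost without HET1 or HET3 or KO2 or KO3.

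Kcnq1 also belongs to the imprinted domain that holds Cdkn1c. Of 14 genes listed for the imprinted Kcnq1 and H19 domains, 10 were tested, and 2 fell and 0 rose. The median log2 change was -0.06 against -0.02 for all genes tested, of which 4.76% fell. The second was Osbpl5, which encodes a lipid transfer protein, at -0.35 ± 0.05 (limma adjusted p = 0.0072), and both falls held without any single array. At an unadjusted limma p under 0.05, 0 were higher and 3 lower. The long non-coding RNA gene Kcnq1ot1 was not tested.

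Of the 11 cyclins and kinases on which the inhibitors act, 3 fell and 0 rose, with a median log2 change of -0.16. At an unadjusted limma p under 0.05 there were 6 lower and 1 higher. Over all genes tested, 4.76% fell and 28.2% had an unadjusted limma p under 0.05. Cdk6, one of the Ink targets, fell from 769 ± 47.8 to 577 ± 51.9 (log2 change -0.42 ± 0.08, limma adjusted p = 0.019). The cyclin genes Ccne1 (-0.23 ± 0.05, limma adjusted p = 0.035) and Ccnd3 (-0.23 ± 0.05, limma adjusted p = 0.038) also fell. Cdk4, the other Ink target, stood at -0.01 ± 0.05 (limma adjusted p = 0.94). The count of falls was 0 with no filter, with the replicate block and in the unmoderated linear model. It was 1 with median centring and 1 over every probe set. Leaving out KO1 left 2 of these falls, leaving out HET1 or HET2 left 1, and leaving out any of the other 3 arrays left 0.

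Downstream of these kinases, 3 of 13 genes of the pocket proteins and E2F factors fell and 1 rose, with a median of -0.12. The shares over all genes tested were 4.76% and 5.16%. The repressor gene E2f7 fell by 0.46 ± 0.07 (limma adjusted p = 0.0077), and the activator genes E2f1 and E2f2 by 0.32 ± 0.06 each (limma adjusted p = 0.020 and 0.024). E2f2 read 125 to 131 in Yap KO cells, as low as the Cdkn2a and Cdkn2b probe sets, and the same limit applies to the size of its fall. Rb1, the retinoblastoma gene, rose by 0.22 ± 0.05 (limma adjusted p = 0.034). E2f7 kept its call without any single array. Of the 3 falls, 2 were kept when HET3 or KO1 was left out and 1 when HET1, KO2 or KO3 was, and the rise of Rb1 was called only when HET2 was.

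**Figure D3:**
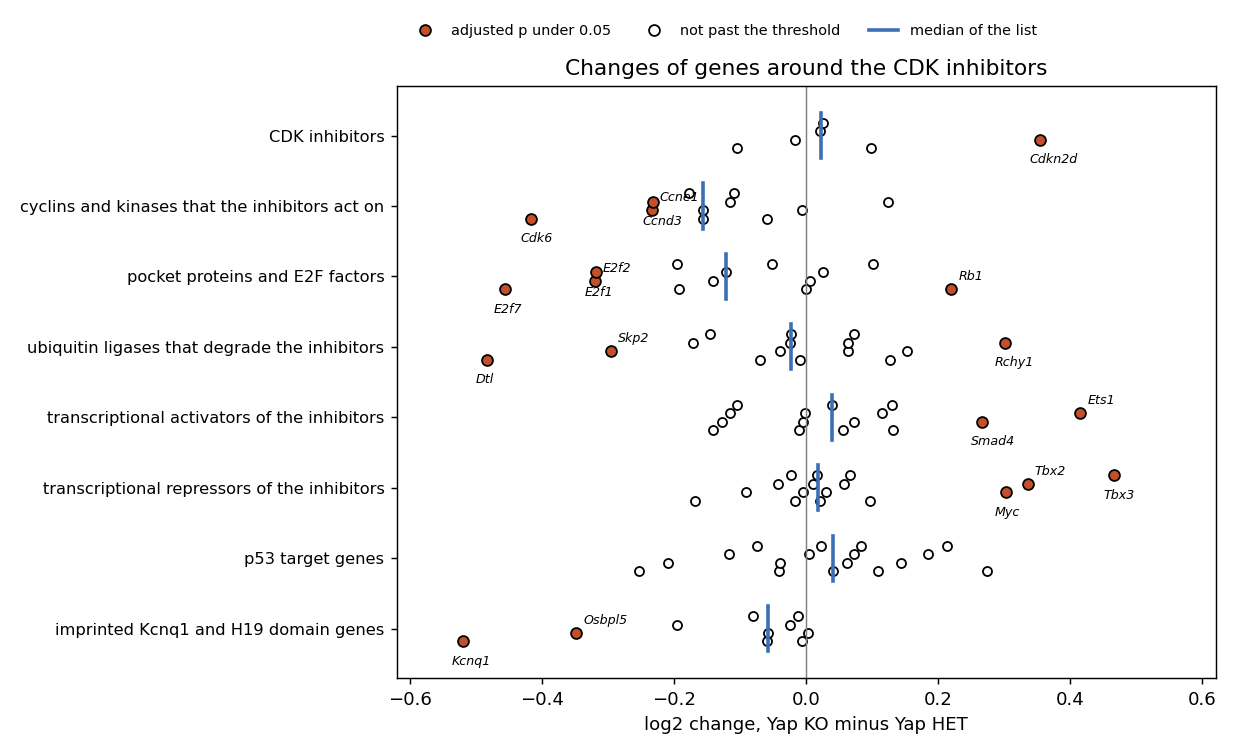
Log2 change (Yap KO minus Yap HET) of each tested gene in 8 lists around the CDK inhibitors, filled and named where the limma adjusted p was under 0.05, with the median of each list as a blue bar. The medians of the cyclins and kinases (-0.16) and of the pocket proteins and E2F factors (-0.12) lie below 0, and that of the inhibitors is 0.02.

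Among 15 genes of the ubiquitin ligases that degrade the inhibitors, 2 fell and 1 rose, with a median of -0.02. The shares over all genes tested were 4.76% and 5.16%. Dtl, whose product is the substrate receptor that directs p21 and the licensing factor Cdt1 to degradation, fell from 668 ± 19.8 to 478 ± 35.8 (log2 change -0.48 ± 0.07, limma adjusted p = 0.0061). Skp2, the receptor that recognises p27, fell by 0.30 ± 0.07 (limma adjusted p = 0.034). Rchy1, a ubiquitin ligase gene whose product targets p53 and p27, rose by 0.30 ± 0.07 (limma adjusted p = 0.029). Levels of the p27 and p21 proteins were not measured. Dtl kept its call without any single array, that of Skp2 held only without KO1, and that of Rchy1 only without HET2 or KO1.

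In the lists of transcriptional activators and repressors of the inhibitor genes, those that passed the threshold rose. The E2F factors, of which some fell, were listed apart and are not counted here. Over all genes tested, 5.16% rose, 4.76% fell and 28.2% had an unadjusted limma p under 0.05. No common direction is read from these counts. Of 15 activators tested, 2 rose and 0 fell (median 0.04). They were Ets1, whose product is known in human cells as an activator of CDKN2A (0.42 ± 0.08, limma adjusted p = 0.022), and Smad4, the common mediator of TGF-beta and BMP signals (0.27 ± 0.06, limma adjusted p = 0.040). At an unadjusted limma p under 0.05, 3 activators were higher and 1 lower, and Trp53 was not tested. Of 16 repressors, 3 rose and 0 fell (median 0.02, 3 higher and 1 lower at an unadjusted limma p under 0.05). These were Myc (0.30 ± 0.05, limma adjusted p = 0.011) and the T-box genes Tbx3 (0.47 ± 0.09, limma adjusted p = 0.018) and Tbx2 (0.34 ± 0.08, limma adjusted p = 0.036), the last pair known as repressors of Cdkn2a. Leaving out HET1 or KO1 left 1 activator, and leaving out HET3, KO2 or KO3 left 0. Leaving out HET1 left 1 repressor, and leaving out HET3, KO1, KO2 or KO3 left 2, with Myc called each time.

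Genes that p53 activates, as it does Cdkn1a, showed no change past the threshold. Of 20 listed, 17 were tested, and 0 rose or fell in limma, while 3 had higher and 3 had lower values with an unadjusted p under 0.05, and the unmoderated linear model called 1 higher and 0 lower. The smallest p-values were those of the antiproliferative gene Btg2 (-0.21 ± 0.05, limma adjusted p = 0.051) and the kinase gene Plk3 (-0.25 ± 0.07, limma adjusted p = 0.052). The median log2 change was 0.04. Over all genes tested, 9.93% changed and 28.2% had an unadjusted limma p under 0.05.

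Cdkn1c is known to differ between the layers of the embryonic myocardium, and markers of both layers were read beside it. Over all genes tested, 5.16% rose and 4.76% fell. Of 10 tested trabecular myocardium markers, 4 rose and 0 fell (median 0.21, 6 higher and 0 lower at an unadjusted limma p under 0.05). They were the transcription factor gene Irx3 (0.63 ± 0.10, limma adjusted p = 0.011), the natriuretic peptide genes Nppb (0.39 ± 0.08, limma adjusted p = 0.021) and Nppa (0.19 ± 0.05, limma adjusted p = 0.049), and Dkk3 (0.29 ± 0.06, limma adjusted p = 0.026). Of 9 markers of compact myocardium, Hey2 (-0.53 ± 0.10, limma adjusted p = 0.021) and Mycn (-0.48 ± 0.06, limma adjusted p = 0.0039), a pair of transcription factor genes, fell and 0 rose (median -0.01). Unadjusted, 1 compact marker was higher and 3 were lower at a limma p under 0.05. Leaving out HET2 left 3 of these 4 trabecular rises, leaving out KO3 left 2, and leaving out HET1, HET3, KO1 or KO2 left 1, with Irx3 called each time. Leaving out HET1 or HET3 left 1 compact marker, Mycn.

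Some markers of other cells passed the test in the same comparison as Cdkn2d, in which 5.16% of all genes tested rose and 4.76% fell. Of 10 markers of mesenchyme and pericytes, 5 rose and 0 fell in limma (unadjusted, 8 were higher and 0 lower at a p under 0.05). They were the receptor genes Pdgfra (0.98 ± 0.10) and Pdgfrb (0.73 ± 0.08), the matrix gene Postn (0.72 ± 0.13), Sox9 (0.39 ± 0.07) and Cspg4 (0.34 ± 0.07). The summed intensity of all 10 markers of this list was 5984 to 6209 in Yap HET and 7385 to 8998 in Yap KO. Of 9 tested endothelial markers, Kdr (0.76 ± 0.05) and Nfatc1 (0.31 ± 0.08) rose and Npr3 fell by 0.34 ± 0.06. Unadjusted, 4 of this list were higher and 1 lower at a limma p under 0.05. The sum over all 9 tested endothelial markers was 1459 to 1551 in Yap HET and 1717 to 1827 in Yap KO. Emcn (0.40 ± 0.12, limma adjusted p = 0.069) and Cdh5 (0.36 ± 0.11, limma adjusted p = 0.076) were higher but did not pass. Among the others, Pecam1 (77.4 to 100), Esam (88.9 to 106) and Flt1 (83.9 to 107) read about as low as Yap1 in Yap KO cells. How far such values lie above background is not known. Of 8 epicardial markers, Tcf21 rose (0.93 ± 0.16) and 0 fell in limma (3 lower at an unadjusted p under 0.05), with sums of 3507 to 4244 and 2529 to 3799. Of 10 blood cell markers, 5 were tested, 4 were under the filter and 0 passed in limma (unadjusted, 1 was higher and 2 lower at a p under 0.05). Ptprc, Csf1r and Cx3cr1, which were among those tested, read about as low as the Cdkn2a probe set. The embryonic globin gene Hbb-y, named for its spread, read 232, 27.1 and 19.8 in Yap HET and 1295, 450 and 86.3 in Yap KO. The part of these cells in the Cdkn2d result was not tested, and in a sorted population more cells of a type and more RNA per cell cannot be told apart. Of the 5 mesenchymal rises, Pdgfra and Pdgfrb alone were kept without KO2, and 4 were kept without KO1, where 8 markers of the list passed in all. The rise of Kdr was kept without any single array and that of Nfatc1 only without KO1, leaving out HET1 left 0 endothelial falls, and leaving out HET1 or KO3 left 0 epicardial rises.

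Cdkn2d stayed higher in Yap KO cells under each of the 18 alternatives tried, with log2 changes between 0.29 and 0.42, and passed the threshold in 13 of them. The limma adjusted p ranged from 0.0018 with a trended and robust prior to 0.083 without KO2, and was 0.089 in the unmoderated linear model. The other 5 inhibitor genes passed the threshold under 0 of their alternatives.

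**Figure D4:**
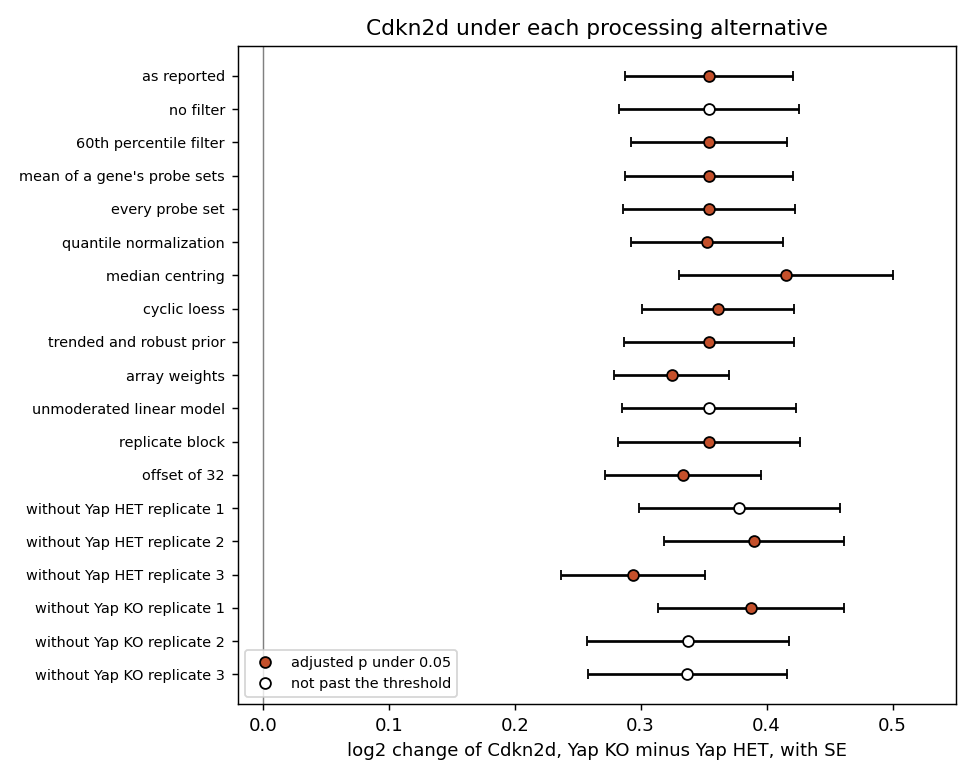
Log2 change of Cdkn2d (Yap KO minus Yap HET) with its SE as reported and under 18 processing alternatives, filled where the adjusted p was under 0.05. The values lie between 0.29 and 0.42, and the open points mark the 5 alternatives in which the call was lost, 3 of them with 1 array left out.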

How the data were processed

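Per the labels' protocols, hearts were digested one by one, green cells were sorted into lysis buffer, and their RNA was column-purified, made into biotinylated cRNA and hybridised to an Affymetrix mouse gene array. The authors deposited an intensity on a linear scale for each of 35556 probe sets. RMA is the processing tool named, with no version, per the submitters' processing notes. RMA gives log2 values, so log2 was taken here. The lowest deposited value was 2e-05 or 3e-05 on each array, and the sources do not say how this linear scale arose. They also do not say whether hearts were pooled on an array, or which embryos were littermates. With quantile normalization applied here, 1723 genes passed the threshold in place of 1353.

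The platform annotation gave 1 symbol to 21789 probe sets, several to 1621 and none to 12146. Through Entrez identifiers 21698 symbols were matched to RefSeq genes of GRCm38.p6, whose order gave the flanking genes. The test used limma 3.58.1 (lmFit, eBayes) under R 4.3.3, with group as the only term, after a check on simulated data. The members and lists were chosen with earlier results of these data known. Named genes were Yap1, the members, in each list the genes past the threshold or else the pair with the smallest p, the flanking genes and the 3 closest profiles. Cdk4, Hbb-y, Cx3cr1, Pecam1, Esam, Flt1, Emcn and Cdh5 lie outside that rule and were picked once their values were known. Alternatives changed the filter, the choice of probe set, the scaling, the variance prior, array weights, an offset of 32, a replicate block, and left out each array in turn.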

Additional observations from a re-analysis of the deposited data

How the results depend on the processing

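The count of all genes changed, 1353 as reported, was 508 with no filter, 872 over every probe set, 2246 with a trended and robust prior, 4617 with array weights, 231 in the unmoderated linear model and 433 to 1375 with 1 array left out. With the replicate block it was 698, and Cdkn2d kept its call (log2 change 0.35, limma adjusted p = 0.049). The replicate numbers are not a documented pairing. Deviations of same-numbered arrays correlated at -0.08, -0.17 and 0.12, and those of differently numbered arrays at -0.23 to 0.28. Of the 3 Yap HET arrays, 0 correlated best with its own number. With 3 arrays a group, these values cannot decide whether arrays were paired. The count of inhibitor genes changed, 1 as reported, was 0 with no filter, where Cdkn2d had the same log2 change of 0.35 and an adjusted p of 0.058 over more genes, and 0 in the unmoderated linear model (0.35, adjusted p = 0.089). With 1 array left out the count was 0 to 1 and the log2 change of Cdkn2d 0.29 to 0.39. The cause of the losses was not tested. Cdkn2a, Cdkn2b and Cdkn2c fell under the 60th percentile filter and have no value there. The signs of 4 genes that passed no test were not stable over the alternatives, with ranges of -0.01 to 0.19 for Cdkn1b, -0.04 to 0.04 for Cdkn1c, -0.23 to 0.02 for Cdkn2a and -0.06 to 0.09 for Cdkn2b. Cdkn2a had a positive sign only without KO1, Cdkn1c with median centring, with array weights or without HET2. Cdkn1b had a negative sign with array weights or without HET3, and Cdkn2b with array weights or without HET2 or KO3. Median centring moved the median of all genes by 0.06 and the share of rises among called genes from 52.0% to 75.7%, and array weights and the unmoderated linear model gave 44.1% and 40.7%.

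The counts in the lists varied over the alternatives, which count every member called and not only the genes named. Falls were 3 as reported and 0 to 7 over the alternatives among cyclins and kinases, 3 and 0 to 6 among pocket proteins and E2F factors, 2 and 0 to 4 among ubiquitin ligases, 2 and 1 to 4 among compact markers, and 2 and 2 to 3 in the imprinted domains. Rises were 2 and 0 to 3 among activators, 3 and 1 to 3 among repressors, 4 and 0 to 6 among trabecular markers, 5 and 0 to 9 among mesenchymal markers and 2 and 1 to 4 among endothelial markers. Among p53 target genes, 0 as reported in limma became at most 2 rises and 3 falls. Each other count of rises or falls in a list, 0 or 1 as reported, ranged within 0 to 2. None of the named genes past the threshold changed direction under any alternative.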
